A study of Homo sapiens with 30 samples.

Results

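The HIPK kinases (homeodomain-interacting protein kinases) HIPK1, HIPK2 and HIPK3 were followed across 5 doses of radiation in 2 human lymphoblastoid lines. These are 3 of the 11963 genes that the array reads with a probe set of 1 symbol, measured by 7 of its 22283 probe sets, each annotated with that symbol and no other, with 2 for HIPK1, 2 for HIPK2 and 3 for HIPK3. The genes were chosen because the HIPK2 probe sets were known to differ in how their signal moved with dose within a line. Values by dose are therefore given for the kinases as a description without a test, and only the difference between the lines, which that choice did not use, was tested for them.

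HIPK1, HIPK2 and HIPK3 are nuclear serine/threonine kinases that bind transcription factors and corepressors and phosphorylate them. HIPK2 is best known for phosphorylating p53 after severe DNA damage, which favours the transcription of p53 target genes of apoptosis. In unstressed cells the HIPK2 protein is short-lived, because ubiquitin ligases such as SIAH1 and WSB1 mark it for the proteasome, and damage-activated kinases interrupt that removal. Much of HIPK2 regulation thus takes place on the protein, whereas the arrays measured messenger RNA.

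The arrays held RNA of the lines GM15036 and GM15510, both established human lymphoblastoid lines (B cells kept growing by Epstein-Barr virus) cultured in MEM with serum. Cells of both lines were exposed to a caesium source at 1, 2.5, 5, 7.5 or 10 cGy, with 3 arrays for each line and dose, which makes 10 groups and 30 arrays. Doses are in cGy as the sample labels state them, although the design text writes the same figures in Gy. Every group was irradiated and no unirradiated group was analysed here, so 1 cGy is the reference. How long after irradiation the RNA was taken is not given. Whether separate cultures stand behind the 3 arrays of a group is not stated, so p-values reflect array-to-array spread that may be technical only, and 3 arrays a group limit the precision.

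The brightness of an array, here the trimmed mean of its unscaled signal, ranged from 14.1 to 112. By group it went from 69.6 ± 10.2 (SD, n = 3) at 1 cGy to 22.1 ± 10.4 at 10 cGy in GM15036, and in GM15510 from 69.4 ± 10.5 at 1 cGy through 18.7 ± 4.48 at 2.5 cGy to 89.1 ± 23.6 at 10 cGy. Signals below are scaled to a common trimmed mean of 50.9, in arbitrary units, and a log2 difference is that of log2(scaled signal + 4), which understates the change of dim probe sets. The signal of a probe set depends on its probes, so percentiles and medians below only place a probe set relative to the filter on low signal and rank no gene above another. Of 7 B cell markers, 6 had a probe set of 1 symbol and all 6 passed the filter on low signal, with median scaled signals from 39.5 (CD79A) to 547 (PAX5). All 5 monocyte markers and 5 of 6 T and NK cell markers fell below it. CD3E (16.1), HBB (13.8), COL1A1 (21.5) and COL1A2 (15.9) were the markers of other cell types that passed it.

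Of the 7 HIPK probe sets, 3 passed the filter, which kept 13331 probe sets at or above the 40th percentile of mean log2 signal. These were both HIPK2 probe sets and 1 of HIPK1. Their mean log2 signals lay at percentile 81.6 (HIPK1 212293_at), 62.2 (HIPK2 219028_at) and 58.2 (HIPK2 213763_at). Just outside the filter lay HIPK3 213697_at, at percentile 34.4.

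HIPK2, the damage-linked member of the family, had higher scaled signals on probe set 219028_at at each higher dose than at 1 cGy in GM15510. In GM15036 only the 10 cGy arrays stood clear of those at 1 cGy, and by less. That difference between the lines was not tested. In GM15510 the 3 arrays at 1 cGy had scaled signals of 9.48, 1.28 and 6.98. At 2.5 cGy they were 10.8, 15.1 and 13.3, and at 5 cGy 15.4, 16.7 and 29.03. They stood at 21.4, 15.5 and 20.6 at 7.5 cGy and at 45.6, 42.2 and 49.3 at 10 cGy. On scaled signal all 3 arrays of each higher dose thus lay above all 3 arrays at 1 cGy. That held for 12.3%, 11.2%, 10% and 13.4% of all tested probe sets at 2.5, 5, 7.5 and 10 cGy. The 10 cGy arrays lay above every other array of the line. The share of probe sets for which that holds was not computed. Before scaling, the arrays at 2.5 and 5 cGy overlapped those at 1 cGy, as given below.

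**Figure D1:**
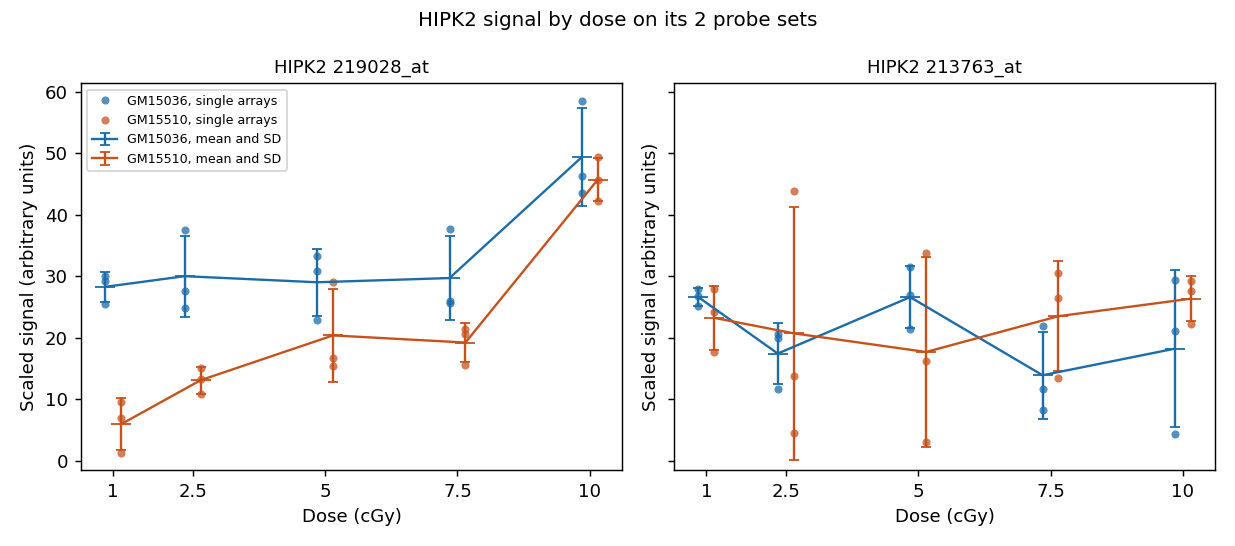
Scaled signal (arbitrary units, vertical axis) of the HIPK2 probe sets 219028_at (left) and 213763_at (right) against dose in cGy, with points for single arrays and lines and bars for the mean and SD of 3 arrays, GM15036 in blue and GM15510 in orange. On 219028_at the GM15510 mean goes from 5.92 at 1 cGy to 45.7 at 10 cGy and the GM15036 mean stays between 28.2 and 29.98 up to 7.5 cGy before 49.4 at 10 cGy, whereas the means of 213763_at have no order by dose.

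Group means of 219028_at in GM15510 were 5.92 ± 4.204 (SD, n = 3), 13.1 ± 2.18, 20.3 ± 7.55, 19.2 ± 3.21 and 45.7 ± 3.53 from the lowest to the highest dose. The log2 differences from 1 cGy were 0.88, 1.36, 1.32 and 2.43, each with SE 0.28. Their size depends on the dim 1 cGy group, where 1 of 3 arrays read below the 4 units added before taking logs, and at 10 cGy it was 3.02 with 1 unit added and 1.51 with 16. The values climbed in 3 stages and not evenly, since the step from 5 to 7.5 cGy was −0.04 with overlapping arrays. The steps from 1 to 2.5, from 2.5 to 5 and from 7.5 to 10 cGy were 0.88, 0.48 and 1.11, each without overlap on scaled signal. From 2.5 to 5 cGy all arrays were higher for 7.85% of all tested probe sets, and from 7.5 to 10 cGy for 14.3%.

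The low reference group holds the lowest 3 of the 30 values of this probe set, and GM15510 1 cGy replicate 2 is the lowest of all at 1.28. Without that array the log2 difference at 10 cGy was 2.03, and at 2.5, 5 and 7.5 cGy it was 0.48, 0.96 and 0.92. The slope over the 5 dose means was 0.226 (SE 0.027) log2 per cGy, and 0.184 with the 1 cGy group left out. At 10 against 1 cGy in GM15510, 219028_at had the highest log2 difference of all 13331 probe sets in the scaled data. The next were an unnamed probe set, 212952_at, at 1.92 and CANT1, a nucleotidase of the Golgi, at 1.65.

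GM15036 started from a higher level and stayed there up to 7.5 cGy. Scaled signals of 219028_at read 25.5, 29.2 and 30.03 at the lowest dose, 37.4, 24.8 and 27.6 at 2.5 cGy and 30.9, 22.8 and 33.2 at 5 cGy. At 7.5 cGy they were 25.9, 25.6 and 37.6, and at 10 cGy 43.4, 58.5 and 46.2. Only the 10 cGy arrays stood clear of those at 1 cGy, with no overlap, as held for 13.8% of all tested probe sets. Their mean of 49.4 (n = 3) was 1.75 times the mean of 28.2 ± 2.40 at 1 cGy.

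The log2 differences from 1 cGy in GM15036 were 0.06, 0.02, 0.05 and 0.72 (SE 0.28), so nearly all of the slope of 0.064 (SE 0.027) log2 per cGy came from the top dose. Without 10 cGy the slope was 0.0038. By size of the difference at 10 cGy in this line, from the most positive down, 219028_at stood at place 762 of 13331. The 10 cGy arrays of GM15036 were on average the dimmest of the line. Before scaling their signals were 15.7, 16.2 and 30.7 and those at 1 cGy 29.01, 43.0 and 44.8, so the unscaled mean was lower at 10 cGy (20.9 against 39.0) and the groups overlapped. With median centring of the unscaled arrays in place of scaling, the median of all tested probe sets shifted by −0.38 at 10 cGy. The log2 difference of 219028_at was then 0.26, while with array brightness as a covariate it was 0.95. The part of brightness in this value was not otherwise tested.

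In GM15510 the brightness of the 1 and 10 cGy arrays was closer. Unscaled signals of 219028_at there were 13.8, 1.44 and 10.5 at 1 cGy and 99.9, 75.6 and 62.5 at 10 cGy, without overlap. At 10 cGy brightness as a covariate gave a log2 difference of 2.38 and median centring gave 2.58. The 2.5 cGy arrays were dimmer (mean brightness 18.7 against 69.4 at 1 cGy). Their unscaled signals were 5.01, 5.13 and 3.92, with a lower mean than at 1 cGy (4.69 against 8.59) and overlapping arrays. At 5 cGy they were 5.90, 9.20 and 39.5, which overlapped 1 cGy too. At 7.5 cGy they were 18.4, 26.3 and 29.6, all above those at 1 cGy. Shares of all probe sets without overlap were not computed for unscaled signals. The Pearson correlation of log2 signal with log2 brightness over the 15 arrays of a line, which share the doses, was −0.71 in GM15036 and 0.28 in GM15510.

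**Figure D2:**
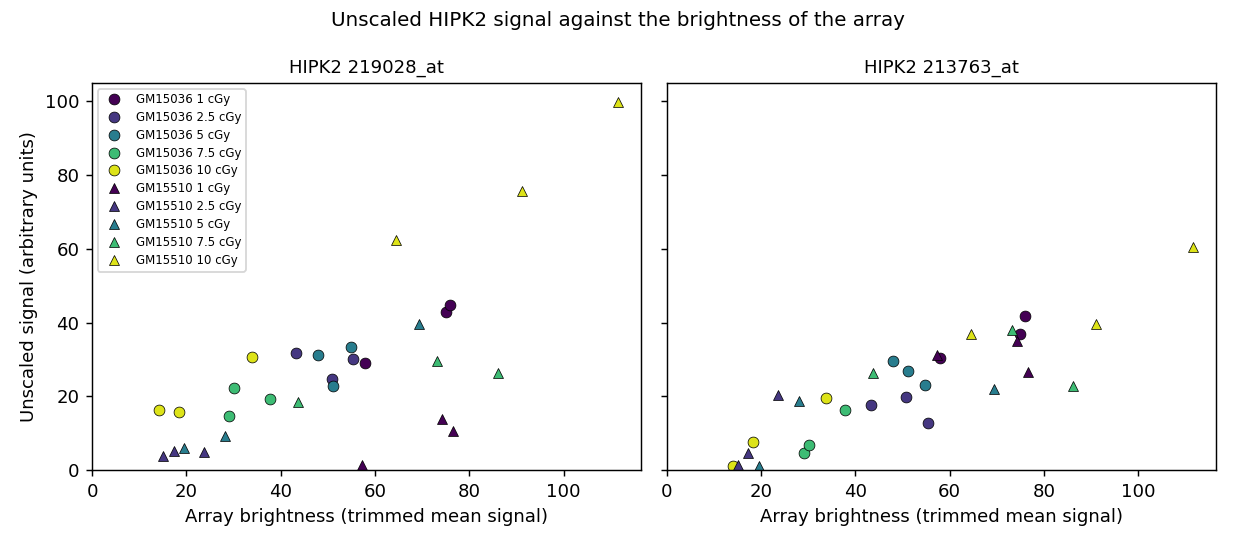
Unscaled signal of the HIPK2 probe sets 219028_at (left) and 213763_at (right) against the brightness of each array (trimmed mean of unscaled signal, both axes in arbitrary units), with circles for GM15036, triangles for GM15510 and colour for dose. On 219028_at the 3 triangles at 1 cGy (1.44 to 13.8) lie far below the 3 at 10 cGy (62.5 to 99.9), whereas the 3 circles at 10 cGy lie at the dim end, with brightness from 14.1 to 33.8.

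The other HIPK2 probe set, 213763_at, gave no such order. In GM15510 its scaled signals were 24.1, 27.8 and 17.7 at 1 cGy, 43.8, 13.8 and 4.47 at 2.5 cGy and 3.07, 33.7 and 16.2 at 5 cGy. At 7.5 cGy they were 30.5, 13.5 and 26.4 and at 10 cGy 27.6, 22.1 and 29.2. Each group of this line overlapped the 1 cGy group, and the arrays at 2.5 and at 5 cGy spread widest, with the highest and the lowest value of the probe set among them.

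In GM15036 the arrays of 213763_at read 26.8, 25.1 and 27.9 at 1 cGy, 20.7, 19.9 and 11.6 at 2.5 cGy and 21.4, 26.9 and 31.4 at 5 cGy. They read 21.8, 8.19 and 11.6 at 7.5 cGy and 21.0, 4.29 and 29.3 at 10 cGy. All 3 arrays were below those at 1 cGy at 2.5 and 7.5 cGy, as held for 9.06% and 10.2% of all tested probe sets, and the groups overlapped at 5 and 10 cGy.

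The log2 differences of 213763_at from 1 cGy were −0.54, −0.01, −0.85 and −0.68 (SE 0.51) in GM15036 and −0.48, −0.62, −0.03 and 0.17 (SE 0.51) in GM15510. Its pooled SD between arrays of a group was 0.71 log2 units, against 0.32 for 219028_at and 0.27 for HIPK1 212293_at. The 3 lowest values, 3.07, 4.29 and 4.47, came from 3 of the 5 dimmest arrays, with brightness of 19.5, 14.1 and 15.03. Over the 30 arrays, with line means removed, log2 signal correlated with log2 brightness at 0.50 on 213763_at and 0.06 on 219028_at. The 0.06 joins values of opposite sign, −0.71 in GM15036 and 0.28 in GM15510. On 213763_at the values by line were 0.64 and 0.43. At 10 cGy in GM15036 the log2 difference of 213763_at was 0.37 with brightness as a covariate. Without the 5 dimmest arrays, where only 10 cGy replicate c stays in that group, it was 0.12. The log2 signals of both HIPK2 probe sets had a Pearson correlation of −0.02 over the same 30 arrays. Which stretch of the HIPK2 transcripts each probe set reads was not analysed here.

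HIPK1, which like HIPK2 binds homeodomain proteins and corepressors, was measured well by 212293_at. Scaled signals ranged from 50.3 to 119 over the 30 arrays with a median of 75.5. In GM15036 the means were 89.1 ± 26.4 (SD, n = 3) at 1 cGy and then, with rising dose, 85.2 ± 8.40, 62.6 ± 20.9, 87.2 ± 20.7 and 81.8 ± 11.1. In GM15510 they were 78.7 ± 6.77, 66.4 ± 8.69, 73.1 ± 12.0, 79.7 ± 15.5 and 85.2 ± 10.98 in the same order. The log2 differences from 1 cGy (SE 0.20) lay between −0.49 (GM15036, 5 cGy) and 0.11 (GM15510, 10 cGy). Arrays were apart from those at 1 cGy once, all lower at 2.5 cGy in GM15510, where the difference was −0.24 and 13.9% of all tested probe sets were so.

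The second HIPK1 probe set, 212291_at, was near the bottom of the scale. It read 0.757 to 10.4 with a median of 2.26, and 23 of its 30 values were below the 4 units that were added before taking logs. In GM15510 its arrays at 2.5, 5 and 10 cGy were all above the 1.46, 1.34 and 1.26 at 1 cGy, at means of 3.84, 4.51 and 3.05 that lie near the 4 units added. Of the tested probe sets, 12.3%, 11.2% and 13.4% had all arrays higher at these doses.

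HIPK3, which binds the death receptor FAS and its adaptor FADD, was dim on all 3 of its probe sets, and none of them passed the filter. On 207764_s_at the scaled signals ran from 0.951 to 12.1 with a median of 4.71, and 12 of 30 were below 4. On 210148_at they ran from 0.253 to 15.3 with a median of 2.15, and 23 were below 4. On 213697_at they ran from 0.774 to 28.96 with a median of 7.97, and 10 were below 4.

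Within groups of 3 arrays HIPK3 spread widely. The 10 cGy arrays of GM15036 read 3.70, 28.96 and 2.84 on 213697_at, and the 7.5 cGy arrays read 0.253, 3.16 and 15.3 on 210148_at. The 5 cGy arrays of GM15510 read 2.85, 1.43 and 1.34 on 207764_s_at, below the 7.23, 8.27 and 2.89 at 1 cGy, with the nearest values 2.85 and 2.89. All arrays were lower there for 12.2% of the tested probe sets, and the other HIPK3 groups overlapped those at 1 cGy. No dose order was seen on the 3 probe sets together.

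**Figure D3:**
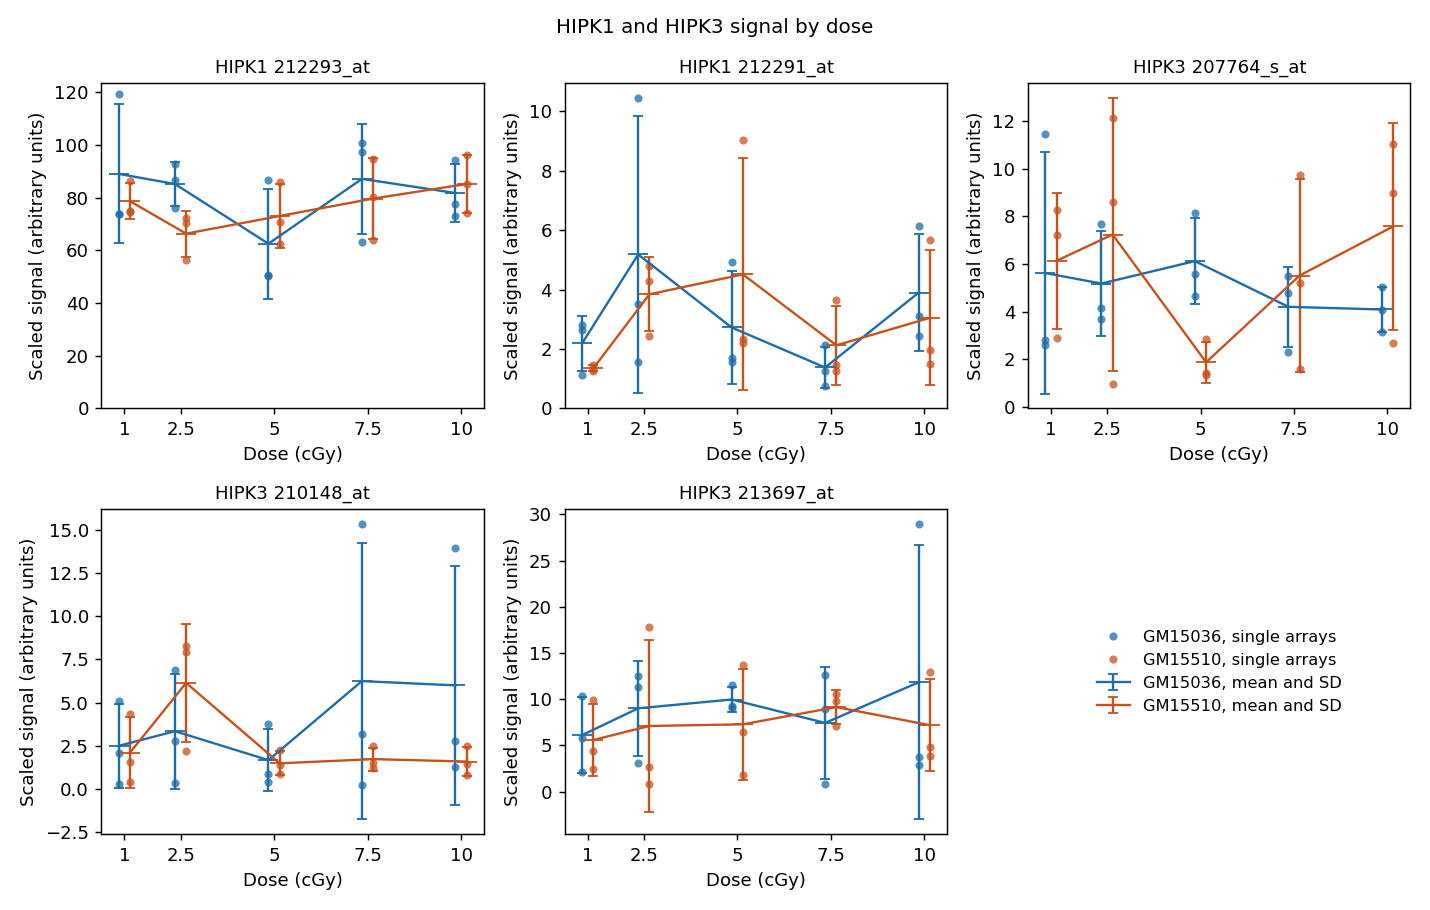
Scaled signal (arbitrary units, each panel with its own axis) of the HIPK1 and HIPK3 probe sets against dose in cGy, with points for single arrays and lines and bars for the mean and SD of 3 arrays, GM15036 in blue and GM15510 in orange. HIPK1 212293_at stays between 50.3 and 119, and the other 4 probe sets lie mostly under 15 units, with bars that reach below 0 in several groups.

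The difference between the lines was tested with limma on the mean over doses, adjusted over all 13331 probe sets. HIPK2 on 219028_at was lower in GM15510 than in GM15036, by a log2 difference of −0.78 (SE 0.13, 95% interval −1.03 to −0.52, adjusted p = 4.59e-06). The mean log2 signal was 5.18 in GM15036 and 4.40 in GM15510, from 15 arrays each. HIPK2 on 213763_at gave 0.04 (SE 0.23, interval −0.42 to 0.50, adjusted p = 0.902), and HIPK1 on 212293_at gave −0.06 (SE 0.09, interval −0.24 to 0.12, adjusted p = 0.625). So 1 of 3 probe sets passed, whereas 47.2% of all probe sets did and 26.7% passed as lower in GM15510.

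The gap between the lines on 219028_at was widest at the lowest dose. GM15510 minus GM15036 was −1.80, −0.98, −0.47, −0.53 and −0.09 on the log2 scale from the lowest to the highest dose (SE 0.28). Arrays of the lines did not overlap at 1, 2.5 and 7.5 cGy and overlapped at 5 and 10 cGy. All arrays of GM15510 were lower for 20.2%, 19.8% and 19.9% of all tested probe sets at 1, 2.5 and 7.5 cGy. In the order of the 10 group means, the lowest 4 were GM15510 at 1, 2.5, 7.5 and 5 cGy, then GM15036 at 1, 5, 7.5 and 2.5 cGy, and last both lines at 10 cGy. Neighbours in that order whose arrays did not overlap were the GM15510 groups at 1 and 2.5 cGy, those at 2.5 and 7.5 cGy, and GM15036 at 2.5 cGy against GM15510 at 10 cGy. For 213763_at and for 212293_at every pair of neighbours overlapped. At 2.5 against 1 cGy in GM15510 all arrays were higher for 12.3% of all tested probe sets, and the share for the other pairs was not computed. The order was drawn from the same values, so these gaps are a description only.

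The named genes with a probe set whose 10 group means ran most like 219028_at, after the mean of each line was removed, were TMC6, GNA12, FBXW7, SLC43A3 and MTMR1. Their Pearson r was 0.943, 0.933, 0.930, 0.926 and 0.914 over the same 10 means, which share arrays and scaling, and no test is given since they were picked by that r. TMC6, a transmembrane channel-like protein, had log2 differences of 0.91 at 10 cGy in GM15510 and 0.40 in GM15036. GNA12, a G protein alpha subunit, had 0.48 and 0.11, and FBXW7, which picks cyclin E and MYC for ubiquitination, had 0.37 and 0.24. SLC43A3, a nucleobase transporter, reached 1.1996 and 0.16, and MTMR1, a myotubularin-related phosphatase, 0.92 and 0.31. The other tested probe sets of TMC6 (1) and MTMR1 (2) are not given.

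The genes with a probe set most like 213763_at were others. The other tested probe sets of HTATIP2 (2), WDR48 (3) and SSR1 (3) are not given. HTATIP2, an oxidoreductase with a role in apoptosis, CASD1, which acetylates sialic acid, and WDR48, a partner of deubiquitinating enzymes, had r of 0.970, 0.964 and 0.953. SSR1, a subunit beside the protein translocon, and TOB1, an antiproliferative protein, had 0.952 and 0.948. At 10 cGy in GM15036 these 5 had log2 differences from −0.55 (WDR48) to −0.33 (TOB1).

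Genes around the kinases were taken from 5 lists covering the kinases upstream, HIPK2 turnover, HIPK partners and substrates, p53 targets and the related DYRK and CLK kinases. The lists were chosen with earlier results of these data known, so the shares and p-values below are no independent support. Of 56 genes, 44 had a probe set of 1 symbol and 40 of these passed the filter. With limma's F test for any difference among the 5 doses, 7 of 40 (17.5%) passed in GM15036 and 11 of 40 (27.5%) in GM15510. Over all 7715 genes, with 1 probe set each, 16.3% and 21.4% passed. Median log2 differences at 10 against 1 cGy were 0.11 in GM15036 and −0.07 in GM15510 for the 40 genes, and 0.02 and 0.00 for all genes, to 2 decimals. Between the lines, 29 of the 40 differed, 9 higher and 20 lower in GM15510, where 49% of all genes did.

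Among the 4 damage kinases, which sense DNA breaks or relay the signal, ATM and ATR differed among the doses in GM15036 (adjusted p = 0.0118 and 0.0372) and ATR in GM15510 (0.0085), the last lost with brightness as a covariate (0.407) and without the 5 dimmest arrays (0.104). ATM phosphorylates SIAH1 and so spares HIPK2. It had mean scaled signals in GM15036 of 60.7 ± 3.30 (SD, n = 3) at 1 cGy, 43.6 ± 6.75 at 2.5 cGy and 85.9 ± 13.7 at 5 cGy, with no single dose past the threshold against 1 cGy. The F test of ATM missed it without GM15036 2.5 cGy replicate c (0.0534) and 5 cGy replicate b (0.0739), and its other probe sets, 208442_s_at and 210858_x_at, did not pass there (0.473 and 0.399). ATR fell by 0.45 (SE 0.12, adjusted p = 0.0112) at 2.5 cGy in GM15510, from 112 ± 3.44 to 81.4 ± 6.62. That call was lost with brightness as a covariate (−0.37, adjusted p = 0.415) and without GM15510 2.5 cGy replicate 3 (0.055). Without the 5 dimmest arrays, where 2.5 cGy keeps only replicate 1, the difference was −0.34. The F test of ATR in GM15036 was lost under 3 settings and without 7 single arrays, with adjusted p up to 0.118, and its second probe set, 209903_s_at, passed there (0.0294) and not in GM15510 (0.166). CHEK1 and CHEK2, the checkpoint kinases, passed in neither line.

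Of the 4 tested genes that remove or cleave HIPK2, SIAH1 was the 1 to pass the F test, in GM15510 (adjusted p = 0.0152). SIAH1, the ubiquitin ligase of HIPK2 in unstressed cells, fell by 0.58 at 2.5 cGy and by 0.66 at 5 cGy (SE 0.17, adjusted p = 0.0245 and 0.0174). Mean scaled signals were 109 ± 11.8 (SD, n = 3) at 1 cGy and then, with rising dose, 73.1 ± 18.8, 68.3 ± 12.7, 86.7 ± 17.8 and 96.3 ± 6.45, so the low values lay in the middle of the dose range. Its probe set, 202981_x_at, is of a kind that can bind related transcripts. The other one, 202980_s_at, did not pass (0.934), and brightness as a covariate ended the F call (0.277). Without GM15510 1 cGy replicate 1 the F test gave 0.0593, and the 2 pairwise calls were lost without this and other single arrays, with adjusted p up to 0.146. Brightness as a covariate ended both (−0.36, adjusted p = 0.623 at 2.5 cGy and −0.54, 0.193 at 5 cGy). The call at 2.5 cGy was also lost with quantile normalization (0.0628). Without the 5 dimmest arrays, where 2.5 cGy keeps only replicate 1, the difference at that dose was −0.66.

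MDM2, a ubiquitin ligase for p53 and HIPK2 and itself a p53 target, did not pass the F test but rose by 0.76 (SE 0.22, adjusted p = 0.0181) at 10 cGy in GM15036. It is named after its values were seen. The call was lost under median centring (log2 difference 0.25, adjusted p = 0.474) and with centring after scaling (0.135). It was also lost without GM15036 1 cGy replicates b (0.0594) and c (0.0805) and 10 cGy replicate a (0.116). Without the 5 dimmest arrays, where 10 cGy in GM15036 keeps only replicate c, the difference was 0.60. WSB1, a ubiquitin ligase component that also targets HIPK2, had −0.94 (SE 0.39, adjusted p = 0.119) there, and CASP6, a caspase that cuts HIPK2, had −0.13.

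Of the 17 tested partners and substrates, HMGA1 and FAS passed the F test in GM15036, and 5 passed in GM15510, namely these genes and CREBBP, CTBP1 and MYB. MYB, a transcription factor whose protein HIPK2 marks for degradation, rose by 0.87 at 5 cGy and by 0.82 at 10 cGy in GM15510 (SE 0.19, adjusted p = 0.0041 and 0.0046). Its arrays there read 33.5 to 45.7 at 1 cGy, 55.1 to 87.9 at 5 cGy, 29.8 to 43.4 at 7.5 cGy and 62.0 to 80.6 at 10 cGy. The 7.5 cGy group was thus back at the level of 1 cGy, between 2 doses that passed. The 5 cGy call was lost under median centring (adjusted p = 0.0776) and the one at 10 cGy held under each setting and without each array.

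HMGA1, a chromatin protein that HIPK2 phosphorylates, rose at 10 cGy in both lines, by 0.56 in GM15510 (SE 0.13, adjusted p = 0.0047) and by 0.46 in GM15036 (adjusted p = 0.0146), but not under median centring. Under that setting the difference in GM15510 was 0.60 with adjusted p = 0.156 and in GM15036 it turned to −0.16. In GM15036 the median of all tested probe sets then shifted by −0.38 at 10 cGy. The GM15036 call was also lost with centring after scaling (0.401), and without 1 cGy replicate c (0.126) and 10 cGy replicates a (0.0608) and c (0.0687). Its F call in GM15036 was lost under median centring (0.475) and with centring after scaling (0.245).

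FAS, the death receptor that HIPK3 binds, had F tests of 1.51e-05 in GM15036 and 0.019 in GM15510. In GM15036 it fell by 0.77 (SE 0.16, adjusted p = 9.28e-04) at 10 cGy, from 272 ± 59.8 to 156 ± 18.1 (SD, n = 3). Its 3 other probe sets had −0.60 (204781_s_at), −0.26 (215719_x_at) and −0.23 (216252_x_at) there, with F tests of 8.99e-07, 0.0022 and 0.0929. In GM15510 they disagreed, with 0.16, −0.78 and −0.75 at 10 cGy and F tests of 0.525, 0.0022 and 0.044. With brightness as a covariate the 10 cGy call of FAS in GM15036 was lost (−0.63, adjusted p = 0.147). Without the 5 dimmest arrays, where 10 cGy keeps only replicate c, the difference was −0.60. In GM15510 the F call of FAS was lost without an intensity trend (0.0744) and without 7.5 cGy replicate 2 (0.0726) and 10 cGy replicates 1 (0.0615) and 3 (0.0515).

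CREBBP, the acetyltransferase that acts with p53 after HIPK2 has phosphorylated it, fell by 0.72 (SE 0.13, adjusted p = 4.29e-04) at 2.5 cGy in GM15510. Its arrays read 188 to 204 at 1 cGy and 107 to 128 at 2.5 cGy, the latter on the dim arrays of that group. Brightness as a covariate ended the call (−0.55, adjusted p = 0.229). CTBP1, a corepressor that HIPK2 sends to the proteasome, differed among the doses of GM15510 (adjusted p = 0.0042) with a high at 10 cGy, 219 ± 16.4 against 167 ± 15.4 at 1 cGy, that did not itself pass (0.11). Its other probe sets, 203392_s_at and 212863_x_at, passed the F test in GM15510 (0.0134 and 2.64e-04). Named after their values were seen, AXIN1, a scaffold that binds HIPK2 and p53, rose by 1.63 at 10 cGy in GM15036 (adjusted p = 0.0406), and MAP3K7, the kinase TAK1 upstream of HIPK2, fell by 0.54 at 2.5 cGy in GM15510 (0.0218). AXIN1 lost its call under 7 of 10 settings, with adjusted p up to 0.715, and without 6 single arrays of GM15036 at 1 and 10 cGy (up to 0.163). MAP3K7 lost its call with brightness as a covariate (−0.56, adjusted p = 0.323) and without 4 single arrays of GM15510 at 1 and 2.5 cGy (up to 0.114). Without the 5 dimmest arrays, where 2.5 cGy keeps only replicate 1, the difference was −0.60.

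Of the 7 tested p53 targets, 1 passed the F test in GM15036 and 2 in GM15510. BAX, the pore-forming apoptosis protein, was highest at 10 cGy in GM15510, and a link to HIPK2 was not tested. Its arrays there read 36.8, 40.6 and 43.3 at 1 cGy, 40.01 to 55.3 at 2.5 cGy, 44.7 to 75.8 at 5 cGy, 45.8 to 50.8 at 7.5 cGy and 94.5, 99.9 and 107 at 10 cGy. At 10 cGy the log2 difference was 1.24 (SE 0.17, adjusted p = 6.44e-06), a call kept under each setting and without each array, and the second probe set, 208478_s_at, gave 1.38. In GM15036 BAX stood at 101 ± 1.90 (SD, n = 3) at 1 cGy and 108 ± 34.4 at 10 cGy, a difference of 0.05 that did not pass. The second probe set had −0.23 there and did pass the F test over the doses of GM15036 (0.0166). The slopes on dose of the lines differed for BAX, 0.109 in GM15510 and 0.013 in GM15036 log2 per cGy (adjusted p = 0.0044 for the difference).

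PPM1D, a phosphatase that switches off ATM and p53 signalling, fell by 0.97 (SE 0.17, adjusted p = 2.03e-04) at 10 cGy in GM15036. Its arrays read 50.5, 57.7 and 69.3 at 1 cGy and 25.1, 25.5 and 33.9 at 10 cGy. Brightness as a covariate ended that call (−0.67, adjusted p = 0.149) and the F call (0.248). The F call was also lost without the 5 dimmest arrays, where 10 cGy keeps only replicate c. PMAIP1, the apoptosis protein NOXA, fell by 0.57 (SE 0.14, adjusted p = 0.0258) at 7.5 cGy in GM15510, and at 10 cGy had −0.03. Its second probe set, 204286_s_at, passed the F test in GM15510 (0.0126), with −0.41 at 10 cGy. At 10 cGy in GM15036 the probe sets differed in sign, 0.25 against −0.60, with neither past the F test. The 7.5 cGy call was lost under median centring (0.283), with centring after scaling (0.0734), without an intensity trend (0.0807) and without 5 single arrays of GM15510 at 1 and 7.5 cGy (up to 0.196). CDKN1A, the arrest protein p21, had 0.41 in GM15036 and 0.24 in GM15510 at 10 cGy, which passed in neither (adjusted p = 0.0587 and 0.437).

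Of the 8 tested DYRK and CLK kinases, the nearest relatives of the HIPK family, CLK1 and CLK2 passed the F test in both lines. CLK1 and CLK2 phosphorylate splicing factors. In GM15510 CLK1 fell by 0.72 at 2.5 cGy and by 0.61 at 10 cGy (SE 0.17, adjusted p = 0.0046 and 0.0206). Brightness as a covariate (−0.36, adjusted p = 0.609) ended the first of these calls. Without the 5 dimmest arrays, where 2.5 cGy keeps only replicate 1, the first difference was −0.66. Median centring (0.263), centring after scaling (0.0749) and no intensity trend (0.0501) ended the second call. So did leaving out GM15510 1 cGy replicate 1 (0.143) or 10 cGy replicate 3 (0.137). CLK2 rose by 0.45 at 2.5 cGy in GM15510 (adjusted p = 0.0103) and by 0.34 at 10 cGy in GM15036 (0.0482). These turned to −0.26 and −0.27 under median centring, where the median of all tested probe sets shifted by −0.50 and −0.38. The second call was lost without 20 of the 30 arrays. The first call was also lost with brightness as a covariate (0.58), centring after scaling (0.35), and without GM15510 1 cGy replicate 1 (0.0683) or 2.5 cGy replicate 2 (0.0764). The second was also lost without a filter (0.0649), without an intensity trend (0.0661), with brightness as a covariate (0.708) and centring after scaling (0.661). Without the 5 dimmest arrays, which keeps 1 array in each of these 2 groups, the differences were 0.34 and 0.25. In GM15036 the F tests of CLK1 and CLK2 were close to the threshold (adjusted p = 0.043 and 0.0434) and were lost without 12 and 14 of the 30 arrays, and under 5 and 6 of the other settings (up to 0.156 and 0.732). In GM15510 the F call of CLK1 was lost without the 5 dimmest arrays (0.0545). That of CLK2 was lost so too (0.0725), and with brightness as a covariate (0.0641), centring after scaling (0.136), and without 1 cGy replicate 1 (0.0768) or 2.5 cGy replicate 2 (0.0534). The DYRK genes tested, DYRK1B, DYRK2, DYRK3 and DYRK4, passed in neither line.

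**Figure D4:**
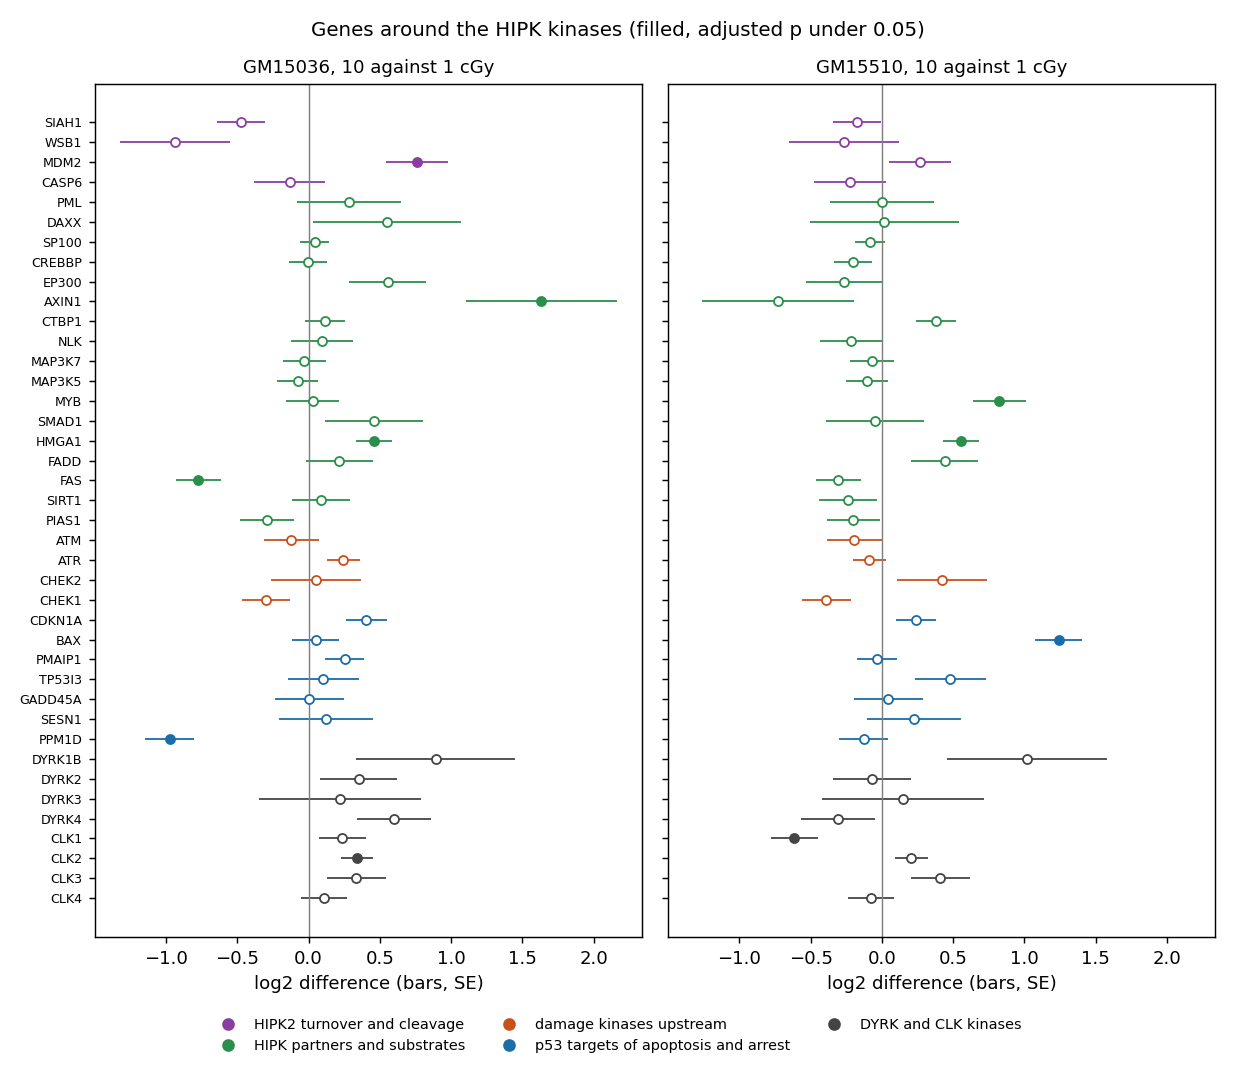
Log2 difference at 10 against 1 cGy (horizontal axis, bars for the SE) of the 40 tested genes around the HIPK kinases in GM15036 (left) and GM15510 (right), coloured by list and filled where the adjusted p was under 0.05. In GM15036 4 genes are filled as higher and 2 as lower, in GM15510 3 as higher, among them BAX at 1.24, and 1 as lower. Median centring shifts the median of all tested probe sets by −0.38 at 10 cGy in GM15036, and HMGA1 and CLK2 then lie left of 0 there (−0.16 and −0.27).

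Against 1 cGy, the 40 genes held 4 that rose and 2 that fell at 10 cGy in GM15036 and 3 that rose and 1 that fell in GM15510. In GM15510 there were 1 that rose and 5 that fell at 2.5 cGy, 1 and 1 at 5 cGy, and 0 and 1 at 7.5 cGy, while in GM15036 0 passed limma's adjusted p at 2.5, 5 and 7.5 cGy, where 5, 5 and 7 had an unadjusted p under 0.05. Of all 7715 genes, 11.7% passed at 10 cGy in GM15036 (303 rose and 603 fell) and 0.557%, 0.117% and 3.2% at 2.5, 5 and 7.5 cGy. In GM15510 9.24% passed at 2.5 cGy (266 rose and 447 fell), 3.89% at 5 cGy, 1.71% at 7.5 cGy and 6.16% at 10 cGy (240 rose and 235 fell).

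A linear slope on dose, read after the values were seen, passed limma's adjusted p of 0.05 for 5 of the 40 genes in GM15036 and 1 in GM15510, where 13.1% and 4.98% of all genes passed. BAX was the 1 in GM15510 (adjusted p = 4.58e-05), a call kept under each setting and without each array. In GM15036 the slopes were −0.094 log2 per cGy for PPM1D (adjusted p = 1.51e-04), −0.065 for FAS (0.0031), 0.049 for CDKN1A (0.0133), −0.11 for WSB1 (0.0389) and 0.064 for MDM2 (0.039). Brightness as a covariate ended all 5, with adjusted p of 0.175, 0.278, 0.629, 0.635 and 0.0779. The slopes were then −0.063, −0.051, 0.025, −0.069 and 0.099 in that order. Brightness differed between the dose groups, so these losses do not tell brightness from dose. CDKN1A turned to −0.0097 under median centring, which shifted the median of all tested probe sets by −0.38 at 10 cGy. It was also lost with centring after scaling (0.19) and without GM15036 1 cGy replicate c (0.0738). Without the 5 dimmest arrays, where 10 cGy keeps only replicate c, the slopes of FAS, WSB1 and MDM2 were −0.049, −0.036 and 0.049. WSB1 and MDM2 were lost without several single arrays of GM15036 too, most without 10 cGy replicate a (0.279 and 0.171).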

How the data were processed

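The deposited values are linear probe set intensities. MAS5 is the tool named for them in the submitters' processing notes, as used by the authors. The version, scaling target and detection calls are not given in the sources used here. Platform symbols were updated by gene ID through a RefSeq table of assembly GRCh38 (19059 probe sets matched). Of 22283 probe sets, 19071 had 1 symbol, 1043 several and 2169 none.

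Trimmed means (2 to 98 percent) of the 30 arrays spanned a ratio of 7.91, and arrays were brought to the mean of these values, 4 was added and log2 taken. After a filter at the 40th percentile and without 68 control probe sets, 13331 were tested with limma 3.58.1 in R 4.3.3 (10 groups, eBayes with trend, 20 residual and 12.3 prior degrees of freedom, two-sided, Benjamini-Hochberg over all tested, threshold 0.05). The procedure was also run on simulated data with independent noise and without differences in array brightness. That run does not cover the brightness differences of these arrays. Listed genes had 1 probe set each, that with the highest mean, and an _x_at or _s_at set where no other kind existed.

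Named are all HIPK probe sets, listed genes past the F test in either line, the 5 genes most like each tested HIPK2 probe set, and others where the text says so. The members and lists were chosen with earlier results of these data known. The alternatives tried were other scalings, offsets and filters, no trend, a replicate block, a brightness covariate, each array left out and, chosen after seeing the data, centring after scaling, leaving out the 5 dimmest arrays, slopes without the lowest or the highest dose, and a slope on dose for the listed genes.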

Additional observations from a re-analysis of the deposited data

Results flagged for a closer look

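The slope of log2 signal on dose differed between the lines for 2 of the 13 listed genes that passed the F test, by limma's test of the difference itself. The 13 genes were chosen by that F test on the same arrays, and the share over all genes is not given. For BAX the slope in GM15510 minus that in GM15036 was 0.0962 log2 per cGy (SE 0.023, adjusted p = 0.0044), from slopes of 0.109 and 0.013. For PPM1D it was 0.101 (SE 0.024, adjusted p = 0.004), from slopes of 0.0064 and −0.094. The GM15036 slope of PPM1D was lost with brightness as a covariate (−0.063, limma's adjusted p = 0.175). Mean brightness went from 69.6 at 1 cGy to 22.1 at 10 cGy in GM15036 and from 69.4 to 89.1 in GM15510. Its part in the slope differences was not tested, and these were not run under the other settings. The slope difference of HIPK2 was not tested, since its values by dose were known when the genes were chosen.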

How the results depend on the processing

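The line difference of HIPK2 219028_at passed under all 11 other settings (−0.94 to −0.49, adjusted p up to 1.51e-04) and without each array (−0.83 to −0.70), and the other 2 tested HIPK probe sets passed under none. Median centring shifts the median of all probe sets by up to −0.50 (2.5 cGy, GM15510; −0.38 at 10 cGy, GM15036), and centring after scaling by up to −0.28. Under median centring the F count of listed genes in GM15510 was 24 in place of 11. The share of all genes passing was not computed under the other settings or without single arrays. The F counts given here thus do not set the listed genes apart from all others. With median centring the 10 cGy difference of 219028_at in GM15036 was 0.26 in place of 0.72. HMGA1 (−0.16) and CLK2 (−0.27) at 10 cGy in GM15036 and CLK2 (−0.26) at 2.5 cGy in GM15510 changed sign under it. The slope of CDKN1A in GM15036 did so too (−0.0097). With centring after scaling the F count in GM15036 was 4 in place of 7. The 10 cGy difference of 219028_at in GM15510 was 3.02 with an offset of 1 and 1.51 with 16. That of 213763_at in GM15036 was 0.37 with brightness as a covariate. It was 0.12 without the 5 dimmest arrays, where only replicate c stays at 10 cGy. At the 60th percentile filter this probe set was not tested. Leaving out each array gave F counts of 3 to 8 (GM15036; 4 without 2.5 cGy replicate b or 5 cGy replicate a, 3 without 2.5 cGy replicate c or 5 cGy replicate b) and 10 to 13 (GM15510). The 10 cGy differences without each array were 0.60 to 0.80 (GM15036) and 2.03 to 2.70 (GM15510) for 219028_at, and −1.09 to −0.08 and 0.01 to 0.29 for 213763_at. Of 18 F calls of listed genes, 11 were kept without each array and 8 under every other setting; the cause of the losses was not tested. Arrays of the same replicate label did not deviate together (r −0.06 to 0.10 over 60 pairs, 12 of 30 arrays closest to their own label). With the replicate block the F counts were 7 and 12 and 1 HIPK probe set passed the line difference. The 10 cGy differences (0.72 and 2.43 for 219028_at) cannot change under it, because each label occurs once in every group. The dim signals of HIPK3 limit what can be said of its dose values.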
